A study of Mus musculus with 6 samples.

Results

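Genes of Kupffer cells, of monocyte-derived cells and of leukocytes in general were examined in bulk RNA-seq of mouse liver. The set holds 39 genes of the 16140 in the deposited table, matched by gene symbol. It was divided into 8 genes of resident Kupffer cells, 16 genes shared by mononuclear phagocytes, 5 genes of monocytes and the cells derived from them, and 10 genes of leukocytes of most lineages. The knockout livers (n = 3) came from mice on a normal diet with the genotype Selofl/fl Alb-Cre, in which loxP sites flank both copies of Selenoo, which encodes the selenium-containing mitochondrial protein SelO, and the albumin promoter drives Cre recombinase in hepatocytes. The control livers (n = 3) came from Selofl/fl mice on the same diet, which carry the floxed alleles and no Cre. Cre and the loss of Selenoo therefore cannot be told apart, and the cells that make most of the 39 transcripts are not the cells in which the albumin promoter is active. The labels give no strain, age or sex. They also do not say that each library is from its own animal, so a p-value here reflects how far these libraries scatter, which may be technical.

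Kupffer cells are the resident macrophages of the liver. They sit in the sinusoids, the liver's capillaries, where they take up bacteria, immune complexes and aged red blood cells through scavenger, complement and Fc receptors, and they renew themselves locally. When they are lost, or in inflammation, blood monocytes that carry CCR2 enter the tissue and can become macrophages there. All of these cells depend on the transcription factor PU.1, the product of Spi1, and on signals through CSF1R, the receptor for colony-stimulating factor 1. Pan-leukocyte genes such as Ptprc, which encodes the phosphatase CD45, are also made by T, B and NK cells, so that their level in a whole liver adds up several cell types.

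Estimated counts summed to 17949315 to 18464736 per knockout library and 15550289 to 18680195 per control library. Selenoo had 117, 163 and 135 counts in the knockout libraries, against 1413, 1630 and 1852 in the controls. Of the hepatocyte markers, 11 were in the table, and they held 176371 to 198987 TPM (the transcripts of a gene set against all transcripts in the library) in knockout and 190651 to 215597 TPM in control livers, as in liver tissue. CPM sets a gene's count against the library's total, with a scaling factor per library, and serves to compare libraries, while TPM also takes gene length into account and serves to compare genes within a library. Of the 39 members, 38 had enough counts to be tested, and S100a4 did not.

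Members with an adjusted p under 0.05 by the quasi-likelihood test of edgeR numbered 0 of 38, where 181 of 12173 tested genes (1.49%) passed and 0.715% passed as lower in knockout livers. The lowest adjusted p was 0.054, for Ptprc. At an unadjusted p under 0.05 there were 23 of 38 members, against 18.5% of all tested genes, and all 23 had lower values in knockout livers, against 9.26% of all tested genes with an unadjusted p under 0.05 in that direction. The log2 fold change was negative for 37 of the 38 members and positive for Cd163, and 52.2% of all tested genes had a negative one. The 23 and the 37 include Ccr2 and Cx3cr1, which passed the low-count filter through their control values. The median log2 fold change of the 38 members was -0.51 and that of all tested genes -0.02. DESeq2's Wald test on the same counts put 9 members below an adjusted p of 0.05, all lower in knockout livers (Aif1, Cd52, Coro1a, Ctss, Fcer1g, Fcgr3, Mpeg1, Ptprc and Spi1), with 5.26% of all genes called. The authors' deposited table also comes from DESeq2, with nearly the same fold changes (Ptprc at -0.76 in both), so it is not separate evidence. It gave a q value under 0.05 for 7 members, all lower in knockout livers, against 3.47% of genes in either direction and 1.44% lower. At an adjusted p of 0.1 edgeR called 7 members and 4.21% of all genes. With no filter on low counts 3 of the 39 passed 0.05 (Aif1, Cd52 and Ptprc), against 2.05% of all genes. A single member passed with upper-quartile scaling (Ptprc; 1.43% of all genes), with length and GC trends removed (Ptprc; 2.27%) and in limma on log2(FPKM + 0.1) (Aif1; 1.04%).

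The medians of all classes lay below that of all tested genes (-0.02), by differing amounts, and the difference between classes was not tested. The median log2 fold change was -0.21 over the 8 resident Kupffer genes, -0.51 over the 16 shared phagocyte genes and -0.59 over the 10 pan-leukocyte genes. Over the 4 tested monocyte-derived genes it was -0.87, and Ccr2 and Cx3cr1 among them passed the low-count filter through their control values, so that this median supports nothing by itself. In 20 of the 38 tested members the 3 knockout values lay below all 3 control values, against 11.9% of all tested genes. These were 2 of the 8 resident, 10 of the 16 shared, 2 of the 4 tested monocyte-derived and 6 of the 10 pan-leukocyte genes. The 20 include Ccr2, which passed the low-count filter through its control values. In bulk RNA fewer cells of a type and less RNA per cell cannot be told apart.

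**Figure D1:**
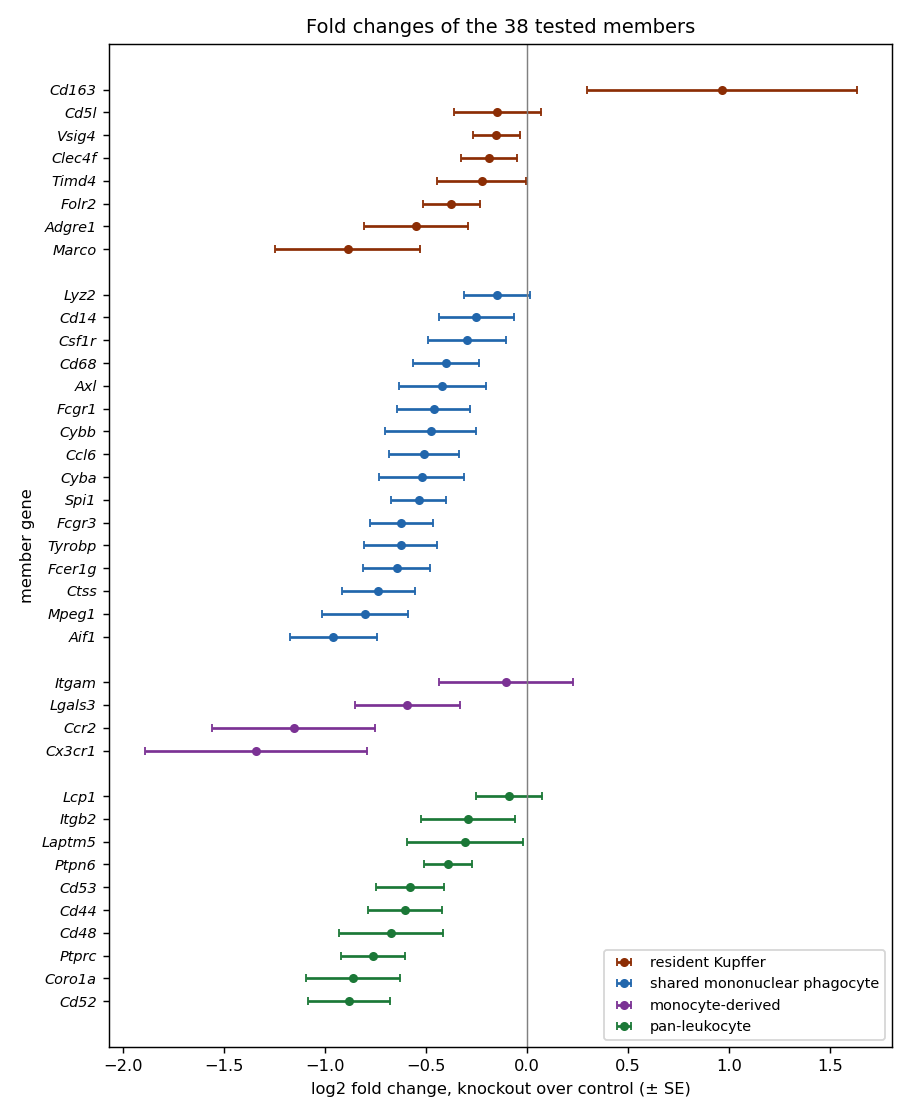
Log2 fold change of knockout over control livers (x axis; points, with bars for the SE) for the 38 tested members, grouped by class. All lie at or below -0.09 apart from Cd163 at 0.97, and the resident Kupffer genes Cd5l, Vsig4, Clec4f and Timd4 lie between -0.15 and -0.22.

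Of the genes that define resident Kupffer cells, knockout means were 87.8% of control means for Clec4f, 90.0% for Vsig4 and 86.0% for Timd4. None of these 3 passed the test, which does not show that the groups were equal. Clec4f, a lectin that in mice is made almost only by Kupffer cells, had 93.4, 84.7 and 84.2 CPM in knockout livers, against 89.0, 113 and 96.6 CPM in controls. Timd4, the receptor for phosphatidylserine on dying cells and a mark of long-lived resident macrophages, had 7.42, 7.03 and 6.25 CPM in knockout livers, against 5.57, 8.17 and 10.3 CPM in controls. For both genes the groups overlapped, with control replicate 1 at or below at least 1 knockout library. Vsig4, the complement receptor that captures bacteria from blood, had 30.2, 29.1 and 28.5 CPM in knockout livers, against 32.6, 30.6 and 34.3 CPM in controls. Its groups did not overlap, but the gap was small. The log2 fold changes of these 3 genes were -0.19 ± 0.14 (SE), -0.22 ± 0.22 and -0.15 ± 0.12, with adjusted p in edgeR of 0.483, 0.606 and 0.506. Cd5l, a secreted protein of tissue macrophages, had a log2 fold change of -0.15 ± 0.22. Without control replicate 1, Clec4f was at -0.26, Timd4 at -0.42, Vsig4 at -0.15 and Cd5l at -0.37. Without control replicate 3 the same genes were at -0.21, -0.0001, -0.11 and 0.05, and none passed in either fit.

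Further receptors of these cells had larger fold changes, none past the threshold with all 6 libraries. Marco, a scavenger receptor for bacteria and particles, had 11.9, 10.3 and 6.93 CPM in knockout livers, against 8.72, 27.1 and 17.9 CPM in controls. Adgre1, the gene of the macrophage antigen F4/80, had 9.99, 13.9 and 11.1 CPM in knockout livers, against 10.4, 18.4 and 22.2 CPM in controls. In both, control replicates 2 and 3 stood above every knockout library and control replicate 1 did not. Folr2, a folate receptor of resident macrophages, had 15.0, 15.4 and 12.6 CPM in knockout livers, against 16.6, 19.5 and 19.7 CPM in controls, with no overlap. The log2 fold changes were -0.89 ± 0.36 for Marco, -0.55 ± 0.26 for Adgre1 and -0.37 ± 0.14 for Folr2, with adjusted p of 0.229, 0.294 and 0.206. Without control replicate 1, Marco (adjusted p = 0.0375) and Adgre1 (0.044) passed. Marco was at -0.46 (adjusted p = 0.551) without control replicate 2, and Adgre1 at -0.31 (0.447) without control replicate 3.

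Cd163, the receptor that clears haemoglobin bound to haptoglobin, stood apart from the other members (NCBI Gene 93671, chr6:124304636-124330529, GRCm38). It had 178, 205 and 205 counts in the knockout libraries, against 24, 29 and 260 in the controls. These are 9.56, 11.7 and 11.6 CPM in knockout livers, against 1.61, 1.498 and 13.5 CPM in controls. Control replicates 1 and 2 lay far below the other 4 libraries, and control replicate 3 lay above them all. The log2 fold change of 0.97 ± 0.67 (adjusted p = 0.461) therefore averages 2 low controls with a high one. Without control replicate 3 it was 2.82 (adjusted p = 0.000816), without control replicate 2 it was 0.51 (0.728) and without control replicate 1 it was 0.55 (0.663). Control replicate 3 was the highest control in 6 of the 8 resident genes, Cd163 among them, and control replicate 2 in Marco and Clec4f.

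**Figure D2:**
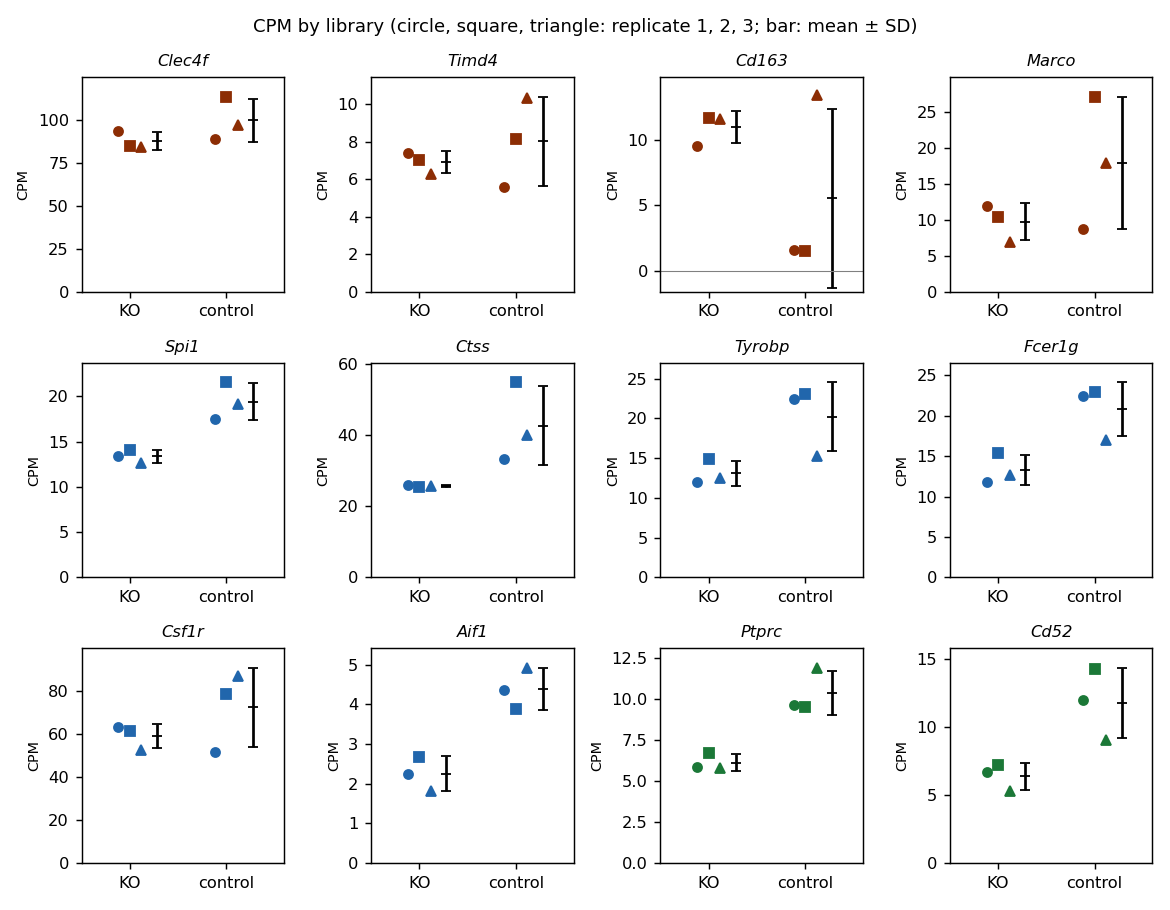
CPM (y axis) in each knockout and control library for 12 members, with circles, squares and triangles for replicates 1, 2 and 3 and bars for mean ± SD. The controls spread widely for Cd163, Marco and Csf1r, and the knockouts of Marco also range between 6.93 and 11.9 CPM; the SD bar of Cd163 in controls reaches below 0 because 2 values are near 1.5 CPM and 1 is 13.5.

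The genes shared by mononuclear phagocytes include the cells' receptors, signalling adaptors, oxidase and proteases. Of the 16, 11 had an unadjusted p under 0.05 in edgeR, against 18.5% of all tested genes. Csf1r had 62.9, 61.2 and 52.5 CPM in knockout livers, against 51.6, 78.4 and 86.7 CPM in controls. Its groups overlapped through control replicate 1, and the log2 fold change was -0.30 ± 0.19 (adjusted p = 0.429). Spi1, the gene of PU.1, had 13.4, 14.1 and 12.7 CPM in knockout livers, against 17.5, 21.5 and 19.1 CPM in controls. Every knockout value of Spi1 was below every control value, with a log2 fold change of -0.54 ± 0.13 (adjusted p = 0.0861 in edgeR).

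The Fc receptors and their adaptors had similar fold changes. Fcer1g encodes the common gamma chain, which carries the signal of several Fc receptors, and it had 11.8, 15.4 and 12.7 CPM in knockout livers, against 22.5, 23.0 and 17.0 CPM in controls. Tyrobp, the adaptor DAP12 that does the same for receptors such as TREM2, had 11.98, 14.9 and 12.4 CPM in knockout livers, against 22.4, 23.0 and 15.2 CPM in controls. Both gave separate groups, and the same control library, replicate 3, was nearest to the knockouts in each. Fcgr3, a low-affinity receptor for IgG, had 10.8, 12.4 and 12.2 CPM in knockout livers, against 16.4, 21.7 and 16.4 CPM in controls. The log2 fold changes were -0.64 ± 0.17 for Fcer1g, -0.63 ± 0.18 for Tyrobp and -0.62 ± 0.16 for Fcgr3, with adjusted p of 0.0913, 0.118 and 0.0868. Without control replicate 3 these adjusted p were 0.0269, 0.0229 and 0.0491, and without control replicate 2 they were 0.268, 0.318 and 0.252. Fcgr1, the high-affinity receptor for IgG, had a log2 fold change of -0.46 ± 0.18. Reads of the Fcgr genes, which are close copies in part, may have been assigned to the wrong member of the family. Per length, in TPM, Tyrobp averaged 51.0 ± 5.04 and Fcer1g 41.1 ± 4.67 in knockout livers, against 76.0 ± 14.5 and 62.5 ± 9.46 in controls (SD, n = 3 each), several times the level of Fcgr3 at 13.3 ± 0.35 TPM in knockout and 20.5 ± 5.09 TPM in control livers.

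Aif1 had the lowest p of this class. It encodes IBA1, a calcium-binding protein of macrophages that bundles actin, and it had 2.26, 2.69 and 1.82 CPM in knockout livers, against 4.36, 3.88 and 4.93 CPM in controls. The knockout mean was 51.4% of the control mean, with a log2 fold change of -0.96 ± 0.22 (adjusted p = 0.0628). Ctss, cathepsin S, the protease that trims the invariant chain of MHC class II, had 26.1, 25.4 and 25.6 CPM in knockout livers, against 33.2, 55.0 and 40.0 CPM in controls. The 3 knockout values of Ctss were nearly equal while the controls ranged widely, and the log2 fold change was -0.74 ± 0.18 (adjusted p = 0.081). Mpeg1, a pore-forming protein of phagosomes, had a log2 fold change of -0.80 ± 0.21 (adjusted p = 0.102). Without control replicate 1 the adjusted p was 0.0184 for Ctss and 0.0053 for Mpeg1. Without control replicate 2 it was 0.212 for Ctss and 0.284 for Mpeg1.

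The other members of the class had log2 fold changes between -0.52 and -0.15. The oxidase subunits Cybb and Cyba, which together form the membrane part of the phagocyte NADPH oxidase, had log2 fold changes of -0.48 ± 0.23 and -0.52 ± 0.21. Those of Ccl6, a chemokine of macrophages, Axl, a receptor for apoptotic cells, and Cd68, a lysosomal glycoprotein, were -0.51 ± 0.17, -0.42 ± 0.22 and -0.40 ± 0.16. Cd14, the co-receptor for lipopolysaccharide, was at -0.25 ± 0.19 and Lyz2, lysozyme M, at -0.15 ± 0.16, and Lyz2 may share reads with its close copy Lyz1. The adjusted p of these 7 genes lay between 0.169 (Ccl6) and 0.655 (Lyz2). Lyz2 was the most abundant of the 39 per length, with 92.3 ± 13.2 TPM in knockout and 102 ± 30.2 TPM in control livers (SD, n = 3 each).

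PU.1 binds DNA around the letters GGAA, most often within GAGGAAGT, and many genes of these cells have such sites near their start. The RefSeq promoter table (GRCm38.p6, the build of the deposited table) held 32 of the 39 members; Adgre1, Csf1r, Tyrobp, Cd14, Spi1, Itgb2 and Cd52 were the others. In the 250 bases before the start, GAGGAA on either strand was present for 14 of the 32 members (43.8%), against 25.9% of all genes in the table. AGGAAGT, which overlaps GAGGAA in 5 letters, was present for 6 of the 32 (18.8%), against 8.8%, and the full GAGGAAGT for 0 of the 32, against 2.79%. A match describes letters and is no evidence of binding. Stretches from 2 resident Kupffer genes, 2 shared phagocyte genes and 1 pan-leukocyte gene are shown because they place these letters in genes described here. Each reads 5′ to 3′ along the gene's strand, with the matched letters, or their complement on the other strand, in capitals.
Folr2 (chr7:101857246-101857292, minus strand): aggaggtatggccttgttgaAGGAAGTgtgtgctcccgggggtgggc
Vsig4 (chrX:96293466-96293511, minus strand): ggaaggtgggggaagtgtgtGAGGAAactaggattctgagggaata
Fcgr1 (chr3:96294004-96294050, minus strand): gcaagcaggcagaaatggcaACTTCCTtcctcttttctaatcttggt
Ctss (chr3:95526602-95526647, plus strand): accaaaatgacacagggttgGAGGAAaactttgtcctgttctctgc
Cd53 (chr3:106790163-106790208, minus strand): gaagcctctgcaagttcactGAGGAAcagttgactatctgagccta
In Fcgr1 the bases that follow the capitals extend them so that GAGGAA is also present on the other strand. Members with GAGGAA were found in each class: 3 of 7 resident, 6 of 12 shared, 1 of 5 monocyte-derived and 4 of 8 pan-leukocyte genes. They include genes with small fold changes, such as Vsig4, and with larger ones, such as Ctss.

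Genes of monocytes and of cells derived from them were scarce in these livers. Ccr2, the receptor that brings monocytes into tissue, had 8, 5 and 11 counts in the knockout libraries, against 13, 25 and 16 in the controls. In CPM these were 0.43, 0.29 and 0.63 in knockout livers, against 0.87, 1.29 and 0.83 in controls. Its groups did not overlap, and the log2 fold change was -1.15 ± 0.40 (adjusted p = 0.178). Cx3cr1, the fractalkine receptor of monocytes and of some tissue macrophages, had 2, 7 and 14 counts in the knockout libraries, against 16, 28 and 15 in the controls. Knockout replicate 3 overlapped the controls, and the log2 fold change of -1.34 ± 0.55 (adjusted p = 0.234) was -2.10 without that library. S100a4, a calcium-binding protein of motile cells, had 7, 5 and 3 counts in the knockout libraries, against 9, 23 and 3 in the controls, and was not tested. The counts of these 3 genes are too few to show moderate differences.

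The class also holds an integrin chain and a galectin. Itgam, the integrin chain CD11b, had 0.86, 1.6 and 0.97 CPM in knockout livers, against 1.01, 1.45 and 1.19 CPM in controls, which overlapped fully, with a log2 fold change of -0.10 ± 0.33 (adjusted p = 0.889). Lgals3, galectin-3, is high in macrophages that have come from monocytes. It had 7.25, 8.801 and 8.13 CPM in knockout livers, against 9.06, 17.8 and 9.44 CPM in controls. Control replicate 2 alone carried most of that difference: the log2 fold change was -0.59 ± 0.26 (adjusted p = 0.261) and was -0.20 without it.

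The pan-leukocyte genes had fold changes of about the size seen for the Fc receptor genes, and none passed the test with all 6 libraries. Ptprc (NCBI Gene 19264, chr1:138062859-138175756, GRCm38) had 5.86, 6.74 and 5.80 CPM in knockout livers, against 9.66, 9.56 and 11.9 CPM in controls. The groups lay well apart, the knockout mean was 59.1% of the control mean, and the log2 fold change was -0.76 ± 0.16 (adjusted p = 0.054). It was the member closest to the threshold, and its adjusted p was 0.0396 without control replicate 1 and 0.195 without knockout replicate 3. Cd52, a small glycoprotein on lymphocytes and macrophages, had 6.72, 7.20 and 5.29 CPM in knockout livers, against 12.01, 14.3 and 9.08 CPM in controls (log2 fold change of -0.88 ± 0.20, adjusted p = 0.0676). Coro1a, a regulator of actin in leukocytes, had 3.87, 5.83 and 4.32 CPM in knockout livers, against 7.38, 11.1 and 6.95 CPM in controls (-0.86 ± 0.23, adjusted p = 0.103). Cd53, a tetraspanin of leukocytes, had 4.35, 5.54 and 4.89 CPM in knockout livers, against 7.18, 8.27 and 6.64 CPM in controls (-0.58 ± 0.17, adjusted p = 0.118). In these 3 genes no knockout value reached a control value.

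The remaining pan-leukocyte genes fell into those with a similar and those with a smaller difference. Cd48, a ligand for the NK receptor 2B4, Cd44, the hyaluronan receptor, and Ptpn6, the phosphatase SHP-1, had log2 fold changes of -0.67 ± 0.26, -0.60 ± 0.18 and -0.39 ± 0.12, with adjusted p of 0.211, 0.129 and 0.128. Laptm5, a lysosomal protein of blood cells, Itgb2, the common beta chain of leukocyte integrins, and Lcp1, the actin-bundling plastin of leukocytes, were at -0.31 ± 0.29, -0.29 ± 0.23 and -0.09 ± 0.16. In these last 3 the control replicate 1 value was the lowest of all 6 libraries, and without it Laptm5 was at -0.61 (adjusted p = 0.0447). Without control replicate 2 Laptm5 was at -0.05 (adjusted p = 0.958).

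**Figure D3:**
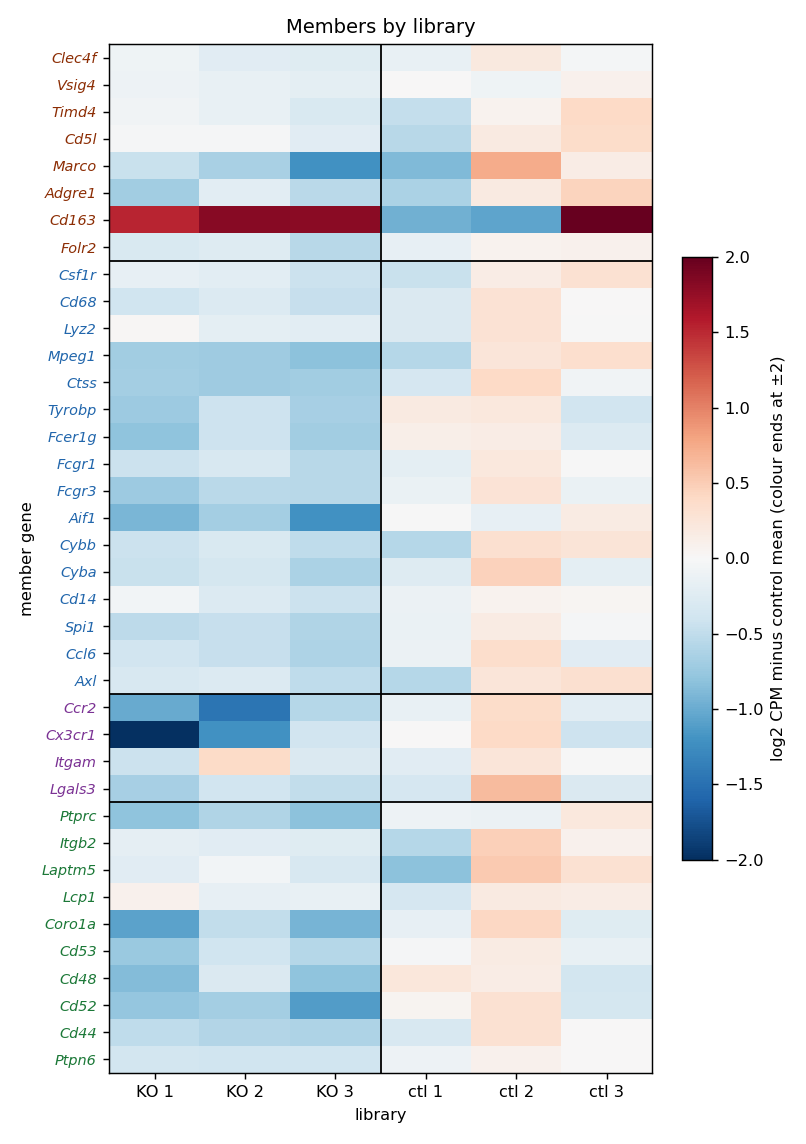
Log2 CPM of each tested member in each library, as the difference from the control mean of that gene (blue lower, red higher), with the classes separated by lines. The knockout columns are blue in most rows, control replicate 2 is red in most, and control replicate 1 is blue in many rows of the resident and shared classes.

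The spread among controls was wide for these genes, and control replicate 1 was most often the lowest control. It was the lowest of the 3 controls in 25 of the 39 members, against 40% of all tested genes. In 10 members, among them Tyrobp, Fcer1g and Cd52, the lowest was control replicate 3. Control replicate 1 was at or below the highest knockout library in 16 members, control replicate 3 in 5 and control replicate 2 in 2. The highest control was replicate 2 in 27. For the counts against the knockouts and of the highest control no share over all tested genes was taken, so they only describe the members. The coefficient of variation of CPM, the SD as a share of the mean, had a median over the 39 members of 9.56% in knockout and 22.1% in control libraries. Over all tested genes these medians were 10.3% in knockout and 17.1% in control libraries. With each library measured from the control mean (log2 CPM), the resident class had medians of -0.09, -0.19 and -0.27 in the knockouts, against -0.51, 0.12 and 0.26 in the controls. The knockouts thus lay between control replicate 1 and the other controls. The pan-leukocyte class had medians of -0.62, -0.39 and -0.60 in the knockouts, against -0.13, 0.24 and 0.01 in the controls, with no overlap, and the shared class had -0.44, -0.39 and -0.58 in the knockouts, against -0.23, 0.24 and -0.01 in the controls.

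Summed per length, the 8 resident genes held 208, 187 and 168 TPM in knockout livers, against 143, 249 and 268 TPM in controls. The 16 shared genes held 374, 357 and 320 TPM in knockout livers, against 361, 598 and 496 TPM in controls. The 10 pan-leukocyte genes held 115, 110 and 93.3 TPM in knockout livers, against 111, 188 and 154 TPM in controls. By summed TPM, control replicate 1 was the lowest of the 6 libraries in the resident class. In the shared and pan-leukocyte classes at least 1 knockout library was above it, though the log2 CPM medians of these classes did not overlap. TPM serves to compare genes within a library, and it was low for its CPM in control replicate 1. Clec4f had 43.15 TPM at 88.98 CPM there, against 57.28 TPM at 93.39 CPM in knockout replicate 1. The 5 monocyte-derived genes held 10.9, 11.5 and 10.2 TPM in knockout livers, against 11.8, 28.04 and 13.3 TPM in controls. The ratio of the resident to the pan-leukocyte sum was 1.80, 1.71 and 1.80 in knockout livers, against 1.296, 1.33 and 1.74 in controls, so that control replicate 3 lay among the knockouts.

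**Figure D4:**
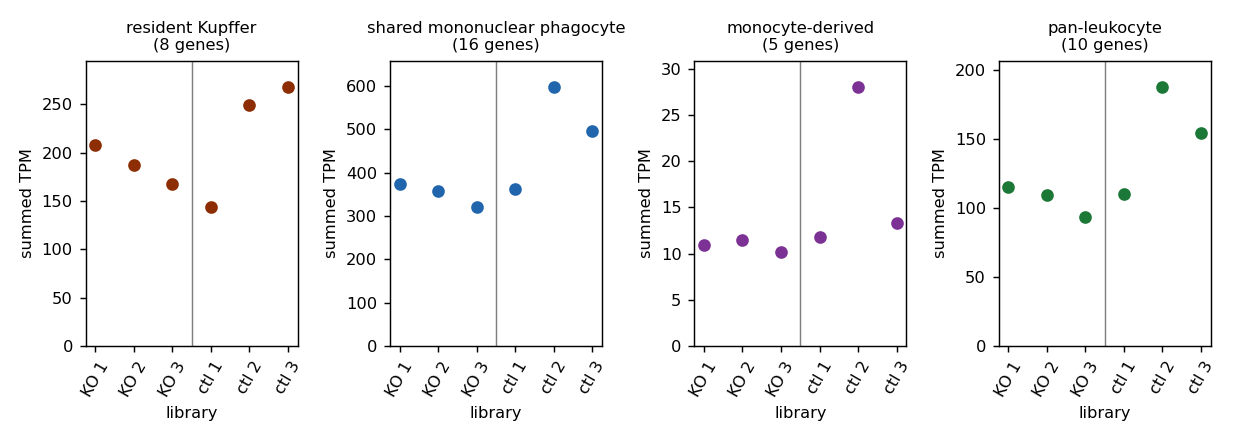
Summed TPM of the genes of each class (y axis, from 0) in each library, with knockouts left of the line and controls right of it. In TPM, control replicates 2 and 3 are the highest libraries in every class. In this unit control replicate 1 lies among or below the knockouts in all but the monocyte-derived class.

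The count of calls depended on which controls were used. Without control replicate 1, 10 members passed, all lower in knockout livers, against 2.93% of all genes: Adgre1, Axl, Cd44, Ctss, Cybb, Laptm5, Marco, Mpeg1, Ptprc and Spi1. Without control replicate 3, 5 passed, against 5.42% of all genes: Cd52, Fcer1g, Fcgr3 and Tyrobp, lower, and Cd163, higher. Without control replicate 2, or without knockout replicate 1, 2 or 3, 0 passed. Over all genes those 4 fits called 0.627%, 0.477%, 0.348% and 0.485%. The resident class, with a median of -0.21, was at -0.40 when control replicate 1 was left out. Leaving out control replicate 2 put the shared class at -0.33 and the monocyte-derived class at -0.56. Leaving out control replicate 3 put the monocyte-derived class at -1.28, over 5 genes.

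**Figure D5:**
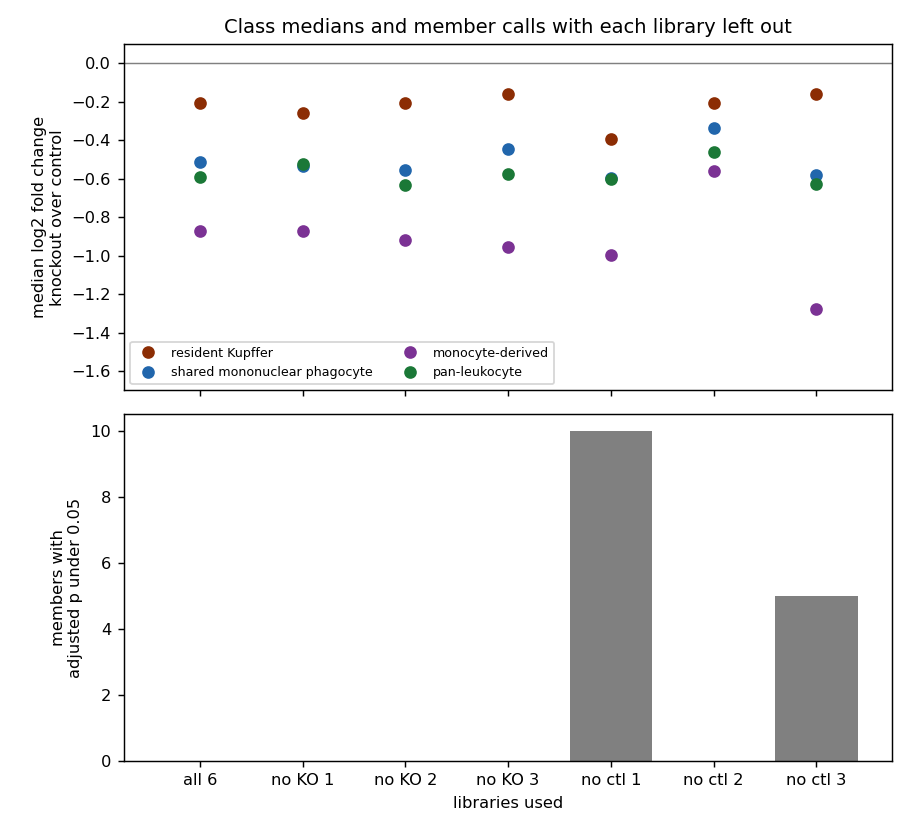
Median log2 fold change of each class (upper panel) and number of members with an adjusted p under 0.05 in edgeR (lower panel, bars) with all 6 libraries and with each left out in turn. Every class median stays below 0, and members pass only without control replicate 1 (10) or control replicate 3 (5).

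Genes that work with the members were read in the same way. Lists of 13 related groups held 0 genes past the adjusted threshold, so their values are descriptions. Among 19 further Kupffer cell genes and complement C1q chains, 14 had a negative and 5 a positive log2 fold change, with a median of -0.30. C1qb, a chain of the first complement component that macrophages make, had 75.2, 72.4 and 66.1 CPM in knockout livers, against 95.4, 126 and 93.0 CPM in controls, and Cfp, properdin, was at -0.58 ± 0.13 (adjusted p = 0.0653). Of 15 tested genes of signalling through immunoreceptor tyrosine-based activation motifs, which act downstream of Fcer1g and Tyrobp, 13 were negative (median -0.36), and the lectin receptor Clec7a had the lowest p, at -0.79 ± 0.17 (adjusted p = 0.0598). The oxidase partners of Cybb and Cyba had a median of -0.52 over 5 genes, with Rac2 at -0.63 ± 0.20 (adjusted p = 0.147).

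Toll-like receptors and inflammasome genes had a median of -0.64 over 14 tested genes, 13 of them negative, against 52.2% of all tested genes. In 9 every knockout value was below every control value, against 11.9% of all tested genes. Tlr2, the receptor for bacterial lipoproteins, had 1.77, 2.17 and 1.19 CPM in knockout livers, against 3.09, 4.08 and 3.32 CPM in controls, with no overlap (-1.03 ± 0.26, adjusted p = 0.0888). Leukocyte integrins and their partners were negative in 9 of 9 (median -0.55), and 8 had an unadjusted p under 0.05, against 18.5% of all tested genes. Among the 8 was Fermt3, kindlin-3, which activates integrins (-0.55 ± 0.16, adjusted p = 0.128). The groups of actin regulators (10 of 10 negative, median -0.36) and of CD45 partners and leukocyte receptors (9 of 10 negative, median -0.31) had medians nearer 0. Pirb, an inhibitory receptor of myeloid cells, was at -0.85 ± 0.20 (adjusted p = 0.0675). Of 8 tested further monocyte genes 6 were negative (median -0.56), and of 7 tested genes of lipid-associated macrophages 7 were negative (median -0.27). Myeloid transcription factors had a median of -0.12 over 9 tested genes, with Irf8, which macrophages and dendritic cells need, at -0.66 ± 0.16 (adjusted p = 0.0811). Growth factors and chemoattractants had a median of 0.00 over 6 tested genes, and the receptors and ligands of Axl's family -0.10 over 3.

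Lysosomal genes that all liver cells make lay on both sides of 0: of 14 tested, 8 had a positive log2 fold change, with a median of 0.03. Ctsd, cathepsin D, had 368, 398 and 341 CPM in knockout livers, against 314, 313 and 328 CPM in controls, with every knockout value above every control value (log2 fold change of 0.21 ± 0.13, adjusted p = 0.41).

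Summed markers of T and NK cells, B cells and neutrophils were lower in knockout livers, and their part in the pan-leukocyte result was not tested. Of the T and NK cell genes, 8 were tested and 0 passed the adjusted threshold. They were scarce, and genes such as Gzma, granzyme A, with 6, 7 and 5 counts in the knockout libraries, against 20, 34 and 15 in the controls, passed the low-count filter through their control values. The 13 T and NK genes in the table summed to 4.42 to 8.36 TPM in knockout and 10.5 to 20.9 TPM in control livers, without overlap, and the NK receptor Ncr1 had 0 counts in control replicate 3. Gzmb, granzyme B, had 13, 14 and 6 counts in the knockout libraries, against 19, 60 and 51 in the controls. All 6 tested B and plasma cell genes were negative (median -0.64), and 1 passed, Jchain, the joining chain of secreted antibodies, with 74, 55 and 59 counts in the knockout libraries, against 141, 260 and 124 in the controls (adjusted p = 0.0326). The 9 B cell genes in the table summed to 6.05 to 9.32 TPM in knockout and 12.01 to 26.7 TPM in control livers. Of 11 neutrophil genes looked for, 10 were present and 2 tested. The 10 summed to 5.47 to 8.53 TPM in knockout and 9.90 to 16.8 TPM in control livers, and the granule gene Camp had 0 counts in the 3 knockout libraries and in control replicate 2.

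Gene lists of the other liver cells had medians near 0. Endothelial genes of the sinusoids had a median of -0.06 over 12 genes, stellate cell genes 0.02 over 11, cholangiocyte genes -0.08 over 5 and hepatocyte genes 0.02 over 11. The exception was Lyve1, a hyaluronan receptor of sinusoidal endothelium that some macrophages also make, with 7.52, 11.0 and 8.24 CPM in knockout livers, against 21.1, 21.3 and 16.8 CPM in controls (-1.15 ± 0.18, adjusted p = 0.0196). Of the erythroid genes 5 were tested, all with a positive log2 fold change (median 0.31) and 0 called. The 7 in the table summed to 198, 4385 and 1163 TPM in knockout livers, against 1858, 293 and 2470 TPM in controls. Control replicate 2, the library highest in most members, was the lowest control in erythroid transcripts. Of 9 dendritic cell genes 3 were tested, all with a positive log2 fold change (0.02 to 0.89) and 0 called.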

How the data were processed

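Livers were lysed in TRIzol, and messenger RNA was captured on oligo(dT) beads, fragmented and made into PCR-amplified libraries, per the labels' protocols. The submitters' processing notes name HISAT2, Bowtie2, RSEM 1.3.1 and GRCm38; strandedness and read trimming are not stated there. The authors deposited estimated counts, FPKM and TPM per gene and library, and their own DESeq2 log2 fold change, p-value and q-value, per the file headers. Columns were matched by group and number in their names.

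Estimated counts were rounded (4.7% to 5.12% were not whole), filtered with filterByExpr, scaled with TMM factors and compared with edgeR 4.0.16 (R 4.3.3), genotype being the only term, with Benjamini-Hochberg adjustment over 12173 genes. Log2 fold changes are knockout over control, and their SE came from the F statistic. The smallest chi-square per degree of freedom between libraries was 16.2, so all 6 were kept. A count of 0 allows up to 3 counts, 0.161 to 0.193 CPM per library, for counting error only. Without molecular identifiers, reads copied by PCR do not count molecules independently. The code was tested on simulated data. TPM was summed as deposited.

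Members, lists and the rule for named genes were chosen with earlier results of these data known. The rule took the 4 members of each class with the smallest p, all 5 monocyte-derived genes and 10 defining genes. Alternatives were DESeq2 1.42.0, limma 3.58.1 with voom or on FPKM, other scalings and filters, a replicate block, each library left out, an adjusted p of 0.1, and removal of length and GC trends (GENCODE, 98.1% of tested genes).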

Additional observations from a re-analysis of the deposited data

How the results depend on the processing

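Under every alternative run the medians of all 4 classes stayed negative. Members past the threshold were 1 with upper-quartile factors, 1 on log2(FPKM + 0.1), 1 with length and GC trends removed, 3 with no low-count filter, 9 with DESeq2 and 7 at an adjusted p of 0.1, against 0 in the report; leaving out 1 library gave 0 to 10. Over all genes, 181 calls became 330 with no low-count filter, 634 with DESeq2, 110 on log2(FPKM + 1), 13 on it without a filter, 513 at an adjusted p of 0.1, and 43 to 668 with 1 library left out. The monocyte-derived median was -0.35 with a filter of 1 CPM in 3 libraries, which left 2 of its genes, -0.25 on log2(FPKM + 1), -0.28 on it without a filter, and -1.28 to -0.56 with 1 library left out; over all 5 genes, with no low-count filter, it was -1.14. The pan-leukocyte median was -0.43 on log2(FPKM + 1) with or without the filter. A pseudocount of 1 shrinks the fold changes of low genes by construction. Signs of single members turned only with 1 library left out: Itgam was 0.0697, 0.0038 and 0.0417 without knockout replicates 1 and 3 and control replicate 2 (range -0.42 to 0.0697), Lyz2 0.0105 without control replicate 2 (range -0.28 to 0.0105) and Cd5l 0.0476 without control replicate 3 (range -0.37 to 0.0476). The cause of the other changes was not tested.

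With a replicate block, 87 genes and 0 members were called. Same-numbered libraries did not deviate together (r of -0.16, -0.079 and -0.076 for replicates 1, 2 and 3). Each knockout correlated better with a control of another number, which follows from the negative r, since deviations within a group cancel out. These values gave no sign that the numbers pair the samples, but so few libraries cannot show that they do not.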

Other observations

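Cd163 lies in a stretch of chromosome 6 where other genes also differed sharply between libraries; these neighbours were looked up after its values were seen. Of 39 tested genes within 1 Mb of Cd163, 5 passed an adjusted p of 0.05 in edgeR, against 1.49% of all tested genes. They were C1rb, C1s2 and Pianp, lower in knockout livers, and Clstn3 and Chd4, higher. The genes found there besides Cd163 all lay at higher coordinates, from Pex5 (66.3 kb away) to Scnn1a (983.7 kb away). C1s2, 294.1 kb from Cd163 and a copy of a complement protease gene, had 1, 0 and 1 counts in the knockout libraries, against 1174, 910 and 373 in the controls. C1rb, 239.9 kb away and a copy of its partner protease, had 0, 0 and 0 counts in the knockout libraries, against 54, 29 and 17 in the controls. Pianp, 666.2 kb away, had 3, 3 and 1 counts in the knockout libraries, against 71, 112 and 45 in the controls. Control replicate 3, the only control in which Cd163 was high, had the lowest counts of the controls for C1s2, C1rb and Pianp. C1ra, C1rl and C1s1, which lie between Cd163 and C1s2, had 1158 counts or more in all 6 libraries. In C1s1 and C1ra every knockout value was above every control value: C1s1 averaged 349 CPM in knockout and 242 CPM in control livers (0.53 ± 0.14, adjusted p = 0.0961), and C1ra 534 CPM in knockout and 400 CPM in control livers (0.42 ± 0.21, adjusted p = 0.315). C1s2 and C1rb are close copies of C1s1 and C1ra, and reads of such copies can be counted for either. The member Ptpn6, 390.2 kb from Cd163, had 421, 388 and 386 counts in the knockout libraries, against 406, 601 and 562 in the controls.

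A few genes of the related lists had higher values in knockout livers, without passing the adjusted threshold. C6, a late complement component, had 300.5, 279 and 268 CPM in knockout livers, against 108, 211 and 110 CPM in controls (0.98 ± 0.25, adjusted p = 0.0887). Nr4a1, a nuclear receptor of patrolling monocytes and an early response gene in many cells, had 3.33, 3.20 and 2.61 CPM in knockout livers, against 1.34, 1.81 and 1.504 CPM in controls (0.96 ± 0.23, adjusted p = 0.0774). Cebpb, a transcription factor of myeloid cells and hepatocytes, had 425, 399 and 337 CPM in knockout livers, against 245, 292 and 207 CPM in controls (0.64 ± 0.17, adjusted p = 0.0957). Pros1, protein S, a ligand of the receptor family of Axl, had 41.4, 43.3 and 43.0 CPM in knockout livers, against 27.2, 26.5 and 31.9 CPM in controls (0.58 ± 0.12, adjusted p = 0.0591). In all 4 genes every knockout value was above every control value, as it was in 1613 of the 12173 tested genes.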
